A study of Homo sapiens with 4 samples.

Results

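The transcription factors that drive or oppose epithelial-mesenchymal transition (EMT), and the epithelial splicing regulators, were compared between CD133+ and CD133- cells of Huh7, a long-established line of human liver cancer (hepatocellular carcinoma) cells. The set held 9 genes: SNAI1, SNAI2, ZEB1, ZEB2 and TWIST1 on the mesenchymal side, and ESRP1, ESRP2, GRHL2 and OVOL1 on the epithelial side. Every probe set that the platform annotation pairs with exactly 1 symbol, that of a member, was taken, which gave 17 of the 54675 probe sets on the array and covered 8 of the 9 genes. The study sorted Huh7 cells by flow cytometry on the surface protein CD133, encoded by PROM1. The comparison asks how CD133+ cells differ from CD133- cells of the same line. Both groups come from 1 cell line with no treatment or genetic change named in the labels, and each is represented by 1 array, summarized once by RMA (log2 values) and once by MAS5 (linear signals).

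EMT is the switch in which epithelial cells give up junctions and polarity and take on a migratory, mesenchymal form. SNAI1, SNAI2, ZEB1 and ZEB2 are repressors that bind E-boxes in the promoters of epithelial genes such as the E-cadherin gene CDH1, and TWIST1 is a basic helix-loop-helix factor of the same programme. GRHL2 and OVOL1 act on the other side, as activators or guardians of epithelial identity, and GRHL2 and ZEB1 are known to repress each other. ESRP1 and ESRP2 are RNA-binding proteins that set the epithelial splice forms of transcripts such as those of CD44 and FGFR2. Hepatocytes are epithelial cells with few of the junction and keratin genes of ducts and gut, and hepatoma lines differ in how far they have moved along this axis.

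Differences below are CD133+ minus CD133- on the log2 scale and on RMA values unless MAS5 is named. A probe set was counted as above the brightness floor when its higher value passed a limit of 4.86 for RMA or 91.8 for MAS5 signal, the medians of the higher values on the whole array. The floor sorts bright from dim probe sets and does not replace a detection call. With 1 array per population no difference has a replicate error or a test, and calls were made by size: at least 2-fold, with the higher value above the floor. The only available yardstick was the SD among probe sets of the same gene, which was 0.17 above the RMA floor and 0.43 above the MAS5 floor, and 0.22 and 1.58 below them. It leaves out the spread between sorts, cultures and hybridizations. In bulk RNA, more cells with a transcript and more transcript per cell cannot be told apart.

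The RNA of the sorted protein went with the labels, since PROM1 had RMA values of 10.49 in CD133+ and 5.33 in CD133- cells. The array does not measure the protein itself. The hepatocyte lineage was plain on both arrays: all 7 measured markers, among them AFP and ALB, had RMA values of 12.23 or more.

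Of the 8 measured members, 4 passed the floor (ESRP1, OVOL1, ZEB1 and SNAI1) and 4 did not (SNAI2, ZEB2, TWIST1 and GRHL2). In the values as measured, ESRP1 was the single member at least 2-fold higher in CD133+ cells, with its CD133- value below the floor, and 0 were at least 2-fold lower. Among all 12899 genes above the floor, 1.65% were at least 2-fold higher and 0.116% at least 2-fold lower. At 1.5-fold, OVOL1 joined ESRP1 as higher and ZEB1 was lower, where 3.67% of all genes were higher and 1.01% lower. At this size by RMA, the higher members were epithelial and the lower member was a repressor of epithelial genes. By MAS5, OVOL1 and ZEB1 differed 1.40-fold and 1.46-fold, and by 0.37 and -0.32 (log2 RMA) when their probe sets were averaged, so both fell short of 1.5-fold there with the direction kept. These are 3 genes read from 1 array per population.

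**Figure D1:**
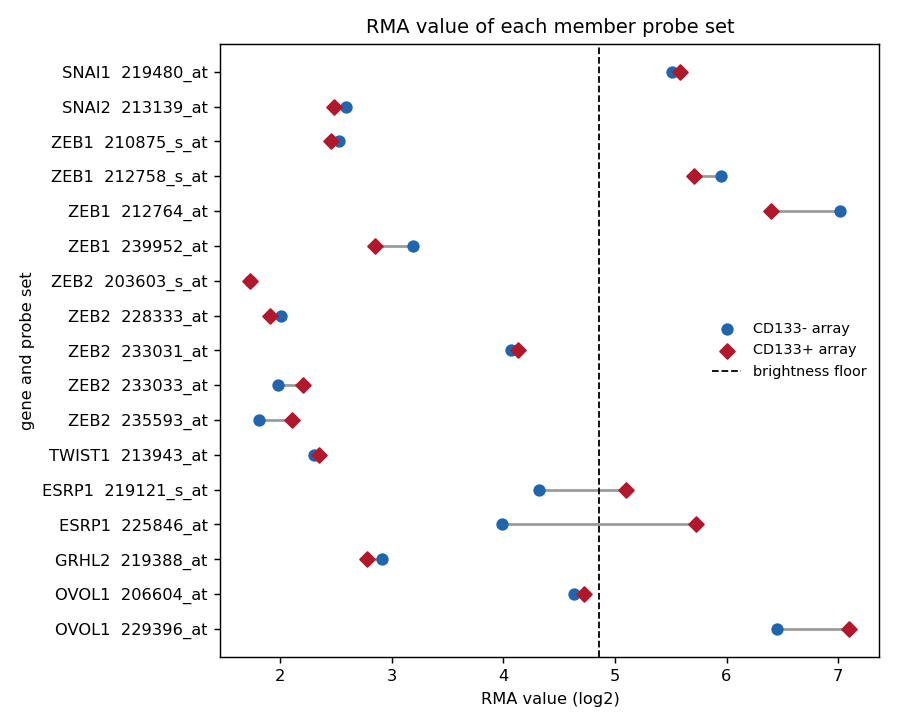
RMA value (log2, horizontal axis) of each of the 17 member probe sets, with the CD133+ array as red diamonds, the CD133- array as blue circles and the brightness floor of 4.86 as a dashed line. The widest gaps are those of ESRP1, which crosses the floor, and of the brightest OVOL1 and ZEB1 probe sets, which point in opposite directions.

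ESRP1, the epithelial splicing regulator, had the largest difference among the members. Its brighter probe set, 225846_at, had RMA values of 5.73 in CD133+ and 3.99 in CD133- cells, a difference of 1.74. Its other probe set, 219121_s_at, had values of 5.10 and 4.32, a difference of 0.78. Both probe sets thus lay above the floor in CD133+ cells and below it in CD133- cells. Because the dimmer value lay below the floor, the safer statement is a bound of at least 1.83-fold for 225846_at and at least 1.18-fold for 219121_s_at. The MAS5 signals of ESRP1 had the same order, 202 against 49.3 for 225846_at and 149 against 12.8 for 219121_s_at. ESRP1 is therefore read as bright enough to count in CD133+ cells and not above the floor in CD133- cells. Against the MAS5 floor the bounds were at least 2.20-fold for 225846_at and at least 1.62-fold for 219121_s_at. The ESRP1 fold has these lower bounds on each scale and cannot be fixed beyond them. When both populations had to pass the floor, ESRP1 dropped out and 0 members counted as higher. The paralogue ESRP2 has 1 probe set in the annotation, which is paired with a second gene as well, so no value is given for it.

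OVOL1, a zinc finger factor known from epidermal and other epithelia, was higher in CD133+ cells on its bright probe set. The values of 229396_at were 7.10 in CD133+ and 6.45 in CD133- cells, a difference of 0.65, or 1.57-fold. The MAS5 signals of this OVOL1 probe set were 415 and 296, 1.40-fold apart. Both populations lay above the floor on either scale. The dim OVOL1 probe set 206604_at, with 4.72 and 4.64, differed by 0.08, less than the spread among probe sets of a gene.

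GRHL2, the Grainyhead-like activator of junction genes, lay far below the floor in both populations. Its probe set 219388_at had RMA values of 2.78 in CD133+ and 2.91 in CD133- cells and MAS5 signals of 32.9 and 45.7. The higher ESRP1 value thus stood beside a GRHL2 probe set below the floor in both populations, and a link between the genes was not tested.

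ZEB1, the zinc finger and homeobox repressor of epithelial genes, was lower in CD133+ cells on all 4 of its probe sets by RMA. The brightest, 212764_at, had values of 6.40 in CD133+ and 7.02 in CD133- cells, a difference of -0.62, or 1.54-fold. The second above the floor, 212758_s_at, had 5.71 and 5.95, a difference of -0.24. Both of these ZEB1 probe sets were also lower by MAS5, with signals of 499 against 730 and 232 against 311. The first difference is several times the spread among probe sets of a gene and the second little more than that spread. The dim ZEB1 probe sets 239952_at and 210875_s_at differed by -0.35 and -0.08, and by MAS5 the former had the opposite sign, with signals of 33.0 and 22.9.

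ZEB1 has several annotated starts, and the E-box that Snail and ZEB proteins bind was looked for around them. The search used the letters CAGGTG and CACCTG, which are the same site read on opposite strands, in windows of 300 bases from 250 bases before to 50 after each start in the RefSeq table of build GRCh38.p14. Of all 35116 windows, 20.6% held a match. The bases before the outermost ZEB1 start, chr10:31318167-31318416 on the plus strand, are shown because ZEB1 is the member that was lower, with the E-box at position -57 in capitals, followed by 30 bases around the matches at -242 and -85 of an inner start (chr10:31318966-31318995 and chr10:31319119-31319148, plus strand).
ZEB1 outermost start: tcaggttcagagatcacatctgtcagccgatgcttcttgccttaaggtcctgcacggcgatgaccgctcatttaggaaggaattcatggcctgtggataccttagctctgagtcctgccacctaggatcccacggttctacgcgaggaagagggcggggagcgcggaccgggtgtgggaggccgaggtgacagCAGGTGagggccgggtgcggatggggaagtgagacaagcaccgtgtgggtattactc
ZEB1 inner start, -242: ccccaccaCACCTGaggaaaacttttccct
ZEB1 inner start, -85: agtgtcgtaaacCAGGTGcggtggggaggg
A match is a description of letters and not a shown binding site. The same inner ZEB1 start had a further match at position 33, which is not shown. The windows of the other ZEB1 starts held none, and neither did the window at the ZEB2 start.

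ZEB2, the paralogue of ZEB1, lay below the floor on all 5 of its probe sets and in both populations. The brightest, 233031_at, had RMA values of 4.13 in CD133+ and 4.07 in CD133- cells. Over the 5 ZEB2 probe sets the differences ran from -0.10 to 0.30, with 3 higher, 1 lower and 1 equal. By MAS5 the same probe sets ran from -3.94 to 3.22, on signals that reached at most 37.2. Such ratios of signals below the MAS5 floor carry no direction for ZEB2.

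The miR-200 family and miR-205 are known to hold down ZEB1 and ZEB2, so their mature forms and seeds (bases 2 to 8, in capitals) are shown beside these genes. The 5 miR-200 members fall into 2 seed groups, which differ at 1 letter of the seed, and miR-205 has a seed of its own.
hsa-miR-200b-3p: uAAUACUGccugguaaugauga
hsa-miR-200c-3p: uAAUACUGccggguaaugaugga
hsa-miR-429: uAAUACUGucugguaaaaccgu
hsa-miR-200a-3p: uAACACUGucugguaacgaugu
hsa-miR-141-3p: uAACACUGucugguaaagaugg
hsa-miR-205-5p: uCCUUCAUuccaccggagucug
The array does not measure mature miRNAs, but it carries a probe set for each of 2 host transcripts. MIR200CHG, the host of the cluster on chromosome 12 (miR-200c and miR-141), had RMA values of 3.99 in CD133+ and 3.90 in CD133- cells. MIR205HG had 2.74 and 2.96. Both host transcripts lay below the floor in both populations, so no direction is read for them.

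SNAI1, the Snail repressor, passed the floor in both populations and was nearly equal by RMA. Its probe set 219480_at had values of 5.59 in CD133+ and 5.51 in CD133- cells, a difference of 0.07. By MAS5 the signals were 163 and 75.7, a log2 difference of 1.11, with the CD133- signal below the MAS5 floor, so that the bound is at least 1.77-fold. The algorithms thus gave different answers for SNAI1, and it counted as at least 2-fold higher on MAS5 values, where 4.47% of the 12251 genes above the MAS5 floor did and 1.71% were lower.

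SNAI2, the Slug repressor, and TWIST1 lay far below the floor. SNAI2 had RMA values of 2.48 in CD133+ and 2.59 in CD133- cells, and TWIST1 had 2.35 and 2.30. Their MAS5 signals, 6.48 against 53.6 for SNAI2 and 10.2 against 24.3 for TWIST1, were also under the MAS5 floor. Of the 5 EMT factors, ZEB1 and SNAI1 were therefore the ones with a value above the floor in these cells.

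**Figure D2:**
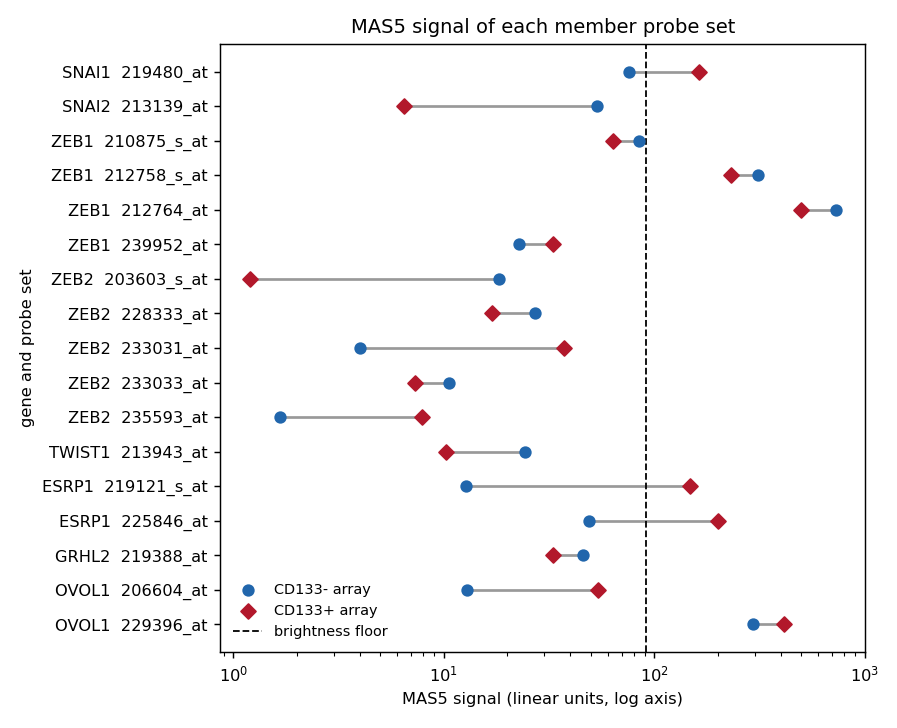
MAS5 signal (linear units on a log axis) of the same 17 probe sets, with symbols as in the RMA plot and the MAS5 floor of 91.8 dashed. The 6 probe sets that reach the floor keep the direction they have by RMA, while the dim ones spread widely, from -3.94 to 3.22 on the log2 scale.

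Among the member probe sets, the algorithms agreed in direction more often above the RMA floor than below it. All 6 member probe sets above the RMA floor, from 4 genes, had the same direction by MAS5, against 7 of the 11 below it. Among these 11, ZEB2 203603_s_at was equal by RMA and had no direction to share. The share of agreement over the whole array is not given here. For these 11 probe sets, RMA differences lay between -0.35 and 0.30. Both algorithms read the same arrays, so their agreement is not independent evidence.

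**Figure D3:**
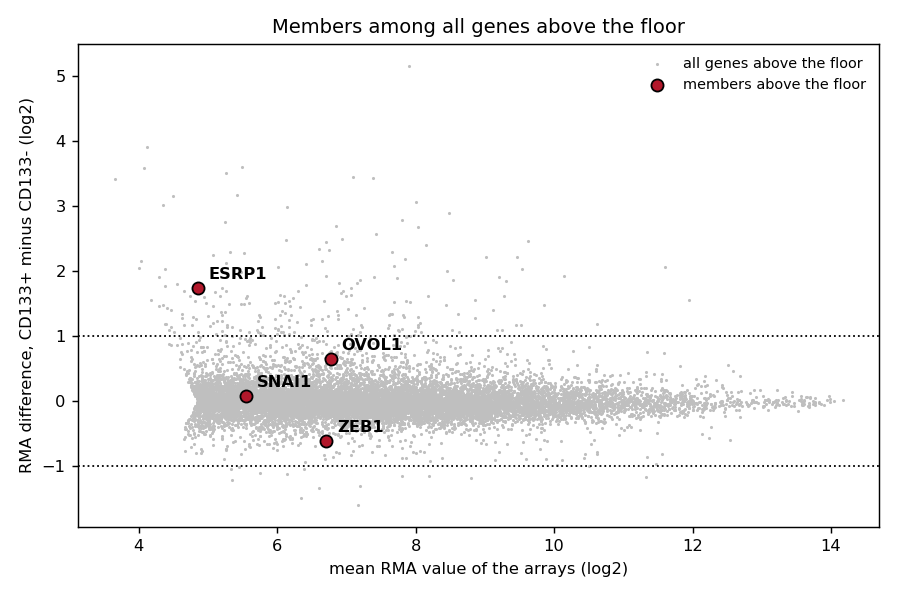
RMA difference (log2, CD133+ minus CD133-) against the mean RMA value of the arrays for all 12899 genes above the floor (grey) and the 4 members among them (red), with dotted lines at 2-fold. ESRP1 lies above the upper line at 1.74, OVOL1 at 0.65 and ZEB1 at -0.62 lie between the lines, and SNAI1 lies near 0.

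The genes around the members were described by lists of known regulators, targets and partners. Over all 12899 genes above the floor the median difference was -0.0099, and 45.6% of them had a positive difference.

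Among other epithelial transcription factors, all 7 genes above the floor were higher in CD133+ cells on their brightest probe set. Their median was 0.69, and 2 of them passed 2-fold. The smallest difference was that of FOXA2 at 0.03. FOXA2 went both ways, from -0.35 to 0.03, with 2 bright probe sets higher and 1 lower. KLF4, a Krüppel-like factor of epithelial differentiation, had RMA values of 7.00 and 3.83, at least 4.43-fold higher. KLF5, its relative in gut and other proliferating epithelia, had 9.49 and 8.22, 2.41-fold higher, and a second KLF5 probe set differed 2.01-fold in the same direction. The mean over all probe sets of a gene lowered the list's median to 0.29. Without probe sets that can match several transcripts it was 0.43, with 1 gene past 2-fold. When both populations had to pass the floor, KLF4 dropped out, the median was 0.51 and 1 gene passed 2-fold. OVOL2, the paralogue of OVOL1, lay below the RMA floor with 4.20 and 3.31, while its MAS5 signals were 135 and 47.1.

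Epithelial genes that ZEB and Snail factors hold down, or that GRHL2 raises, were mostly higher in CD133+ cells. Of 26 above the floor, 22 had a positive and 4 a negative difference, the median was 0.34, and 4 were at least 2-fold higher and 0 lower. KRT19, a keratin of ducts, was 4.07-fold higher (10.54 and 8.52). CLDN7, which encodes a claudin of tight junctions, had values of 8.13 and 6.26, 3.65-fold apart. SPINT1, an inhibitor of membrane serine proteases such as matriptase, was 2.85-fold higher (6.88 and 5.36) on its brightest probe set. The other SPINT1 probe set differed by 0.26 by RMA and by -0.14 by MAS5. EPCAM, the epithelial adhesion molecule, was 2.27-fold higher (11.21 and 10.03). CDH1, the classical target of these repressors, was bright in both populations, with 10.71 and 10.29, and its probe sets differed by 0.42 and 0.52. The list's median was 0.17 when the probe sets of each gene were averaged, and 0.14 when those that can match several transcripts were left out.

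E-box letters were frequent in the promoters of this list. Of its 18 genes with a window in the RefSeq table, 14 held CAGGTG or CACCTG in at least 1 window, against 24.1% of all 27305 genes. The list was made of known targets of E-box repressors, so this share describes the list and is no independent finding. CLDN7 had 5 matches in the window of an inner start, a number reached by 0.094% of all windows, and SPINT1 had 1 at position -26 of an inner start. Their surroundings are shown because both genes were at least 2-fold higher, as 30 bases each: CLDN7 at chr17:7262635-7262664, chr17:7262596-7262625 and chr17:7262481-7262510 on the minus strand, and SPINT1 at chr15:40844439-40844468 on the plus strand, with the E-box in capitals.
CLDN7, -174: tttcttcctcctCACCTGggcaaggagggg
CLDN7, -135: cgacttccggttCAGGTGagtgtcccttcg
CLDN7, -20 and -9: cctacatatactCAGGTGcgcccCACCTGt
SPINT1, -26: tcccgggctgatCAGGTGtgtctcctcctc
The same inner CLDN7 start had a further match at position 5, which is not shown. The windows at the outermost starts of CLDN7 and SPINT1 held no match. KRT19, EPCAM and CDH1 had no window in the RefSeq table. Matches did not go with the size of the difference in every gene. CRB3, a polarity gene of the same list, also had 5 matches in 1 window and differed by 0.14 by RMA and -0.20 by MAS5, and AP1M2, an epithelial sorting adaptor, had 3 and differed by -0.35. The windows of the higher genes KLF4, KLF5 and VIM held no match.

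Mesenchymal genes were also higher in part. Of 12 above the floor, 10 had a positive difference and 3 were at least 2-fold higher by the measured values, or 2 when both populations had to pass the floor: VIM, the intermediate filament of mesenchymal cells, at 3.78-fold (11.10 and 9.18), COL1A2, a fibrillar collagen chain, at 2.51-fold (8.48 and 7.15), and FBN1, the fibrillin of matrix microfibrils, at least 1.57-fold (5.51 and 3.82). The N-cadherin gene CDH2 differed by 0.24 and the fibronectin gene FN1, which hepatocytes secrete, by 0.03. The median of this list was 0.36, but 0.59 when the probe sets of each gene were averaged, 0.09 with no floor and 0.01 without shared probe sets, where 1 gene passed 2-fold. Lower ZEB1 and higher ESRP1 values thus stood beside higher values of both epithelial and mesenchymal genes. Of 8 fibroblast and stellate cell markers, a list that shares COL1A1, COL1A2, ACTA2 and THY1 with this one, 4 lay above the floor, and the summed MAS5 signal over all 8 was 2828 in CD133+ and 1461 in CD133- cells. DCN, COL3A1, ACTA2 and THY1 lay below the floor in both populations, while LUM was at least 2.33-fold higher. The other two above the floor, COL1A1 and PDGFRB, differed by 0.04 and -0.25, so that COL1A2 and LUM gave most of the gap between the sums. The part of such cells in the result was not tested. Summed signals of endothelial markers were 337 and 331, and those of blood cell markers 13116 and 13873, with LYZ giving most of the signal in both.

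**Figure D4:**
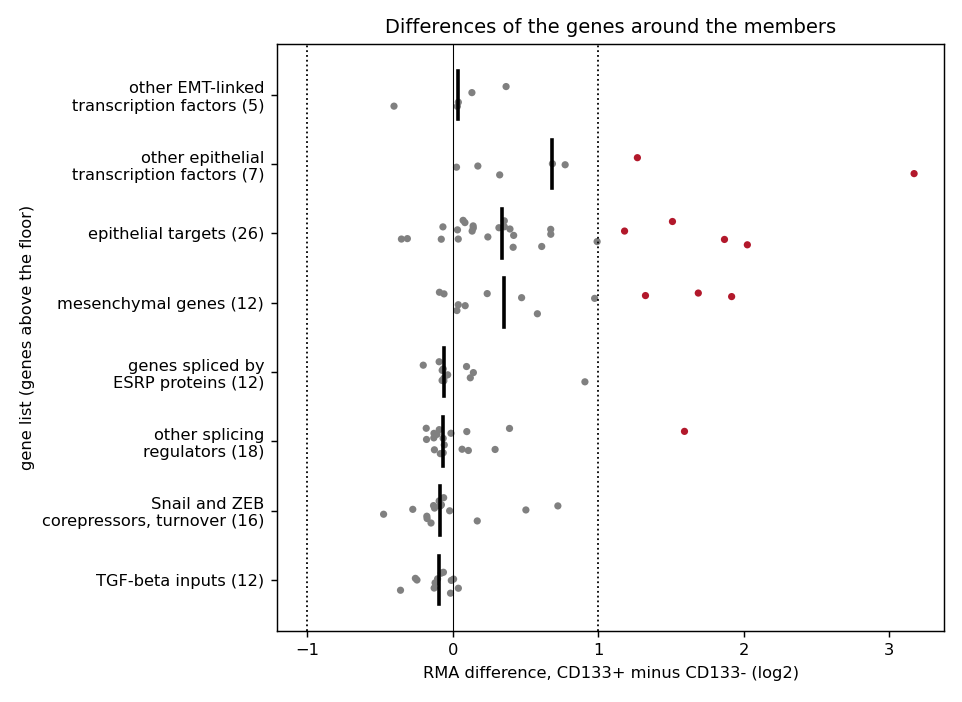
RMA difference (log2, CD133+ minus CD133-) of each gene above the floor in 8 lists, with the number of genes in parentheses, the median as a black bar, dotted lines at 2-fold and red points for genes at least 2-fold higher. The medians of the epithelial factors (0.69), epithelial targets (0.34) and mesenchymal genes (0.36) lie to the right of 0, and those of the last 4 lists lie between -0.09 and -0.06.

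Genes whose transcripts ESRP proteins splice differed little in total level, apart from CD44. Of 12 above the floor, 4 had a positive difference, the median was -0.06 and 0 passed 2-fold on their brightest probe set, against 1 (CD44) by MAS5. CD44, the hyaluronan receptor whose variable exons ESRP proteins retain, differed by 0.91 on that probe set (6.07 and 5.16). All 6 CD44 probe sets above the floor were higher in CD133+ cells, by 0.73 to 1.61, and 4 of them at least 2-fold by the measured values. For these 4 the CD133- value lay below the floor, and the bounds against it ran from at least 1.11-fold to at least 2.15-fold, with 1 past 2-fold. Among the other genes of this list, differences of the probe sets above the floor ran from -0.49 to 0.37, with 0 past 2-fold. FGFR2, a receptor with epithelial and mesenchymal splice forms, went both ways, from -0.32 to 0.14 over its 4 probe sets above the floor. The values are per probe set and not per exon, so splice forms were not measured here. NFYA was the lowest of the list at -0.20.

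Other splicing regulators, all 18 above the floor, had a median of -0.06. NOVA1, a neuronal splicing factor, was at least 1.85-fold higher (5.75 and 4.15). RBM47, an RNA-binding protein of epithelial cells, differed by 0.39, and RBFOX2 and QKI, which favour mesenchymal splice forms, by -0.11 and -0.18. HNRNPM was lowest at -0.18. ESRP1 and NOVA1 were thus the listed splicing regulators past 2-fold in the values as measured. By RMA, the CD133- value of both genes lay below the floor and the bound stayed under 2-fold. By MAS5, the ESRP1 bound was at least 2.20-fold on 225846_at. NOVA1 had MAS5 signals of 241 and 115, both above the MAS5 floor and 2.09-fold apart. NOVA1 no longer passed when its probe sets were averaged, when those that can match several transcripts were left out, or when both populations had to pass the floor.

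Corepressors and turnover factors of Snail and ZEB proteins had a median of -0.09 over 16 genes, with 0 past 2-fold. AJUBA, a LIM protein that binds Snail, was highest at 0.72 and FBXO11, a ubiquitin ligase component that targets Snail, lowest at -0.47. TGF-beta inputs had a median of -0.09 over 12 genes, from TGFBR1 at -0.36 to TGFB2 at 0.04. That list held ligands, receptors and SMAD proteins, but also the pathway inhibitors SMAD7, SKI and SKIL, so its median mixes activators and inhibitors. Other EMT-linked transcription factors had 5 genes above the floor with a median of 0.04, from HMGA2 at -0.40 to FOXQ1 at 0.37. None of these 3 lists held a gene past 2-fold on its brightest probe set in either direction.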

How the data were processed

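The data are 4 deposited columns: each sorted population appears once with MAS5 signals and once with RMA values. They were taken as 1 array per population, so MAS5 and RMA were never used as replicates. The authors' MAS5 values are linear signal intensity, per the labels, with a mean of 500.1 on both arrays after trimming 2% at each end. The submitters' processing notes name MAS5 and GCOS. The deposited RMA values are log2, per the labels; the RMA software is not given in the sources used here. Both scales equalize the arrays, so a global shift could not be seen.

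The annotation gave 41097 probe sets exactly 1 symbol, 1801 several, and 11777 are unnamed here. Of the probe sets with 1 symbol, 41043 took the GRCh38.p14 symbol of their Entrez number, whether or not it differed, and the rest kept theirs. This gave 19775 genes, and the brightest probe set by mean RMA stood for each gene. Named were all members with every probe set, PROM1, and list genes at least 2-fold different or, failing these, the list's extremes. OVOL2, CDH1, CD44, FGFR2, CDH2, FN1, RBM47, RBFOX2 and QKI were added for their role. So were AFP, ALB, LYZ, SMAD7, SKI, SKIL, the stromal markers and the host transcripts. CRB3, AP1M2, HMGA2, CDS1, SPARC and FOXA2 were added after their values were seen. Members and lists were chosen with earlier results of these data known. Folds are bounds against the floor where only 1 value passed it. The number of arrays limits the precision. Python 3.11.15 and pandas 2.3.3 were used.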

Additional observations from a re-analysis of the deposited data

How the results depend on the processing

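With 1 array per population, no replicate could be left out and no paired analysis was possible. The count of members at least 2-fold higher (1, ESRP1) and lower (0) stayed the same with both algorithms required, no floor, the mean over probe sets, no probe sets that can match several transcripts, and centring on the median. By MAS5, 2 members were higher, SNAI1 joining ESRP1, and over all genes 548 were higher and 209 lower, against 213 and 15 by RMA. With both populations required above the floor, 0 members and 140 genes were higher. At 1.5-fold, 2 members and 474 genes were higher, and 1 member and 130 genes were lower. With the mean over probe sets, the ESRP1 difference was 1.26, that of OVOL1 0.37 and that of ZEB1 -0.32. Of 53 values recomputed by MAS5, lists and single probe sets included, 27 moved by less than the RMA spread among probe sets of a gene (counts: by at most 1.5 times) and 26 by more. No called member changed direction in the alternatives run. The members below the floor are limited by signal: their MAS5 differences have no reliable sign.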

Other observations

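HMGA2, an architectural chromatin protein of embryonic and mesenchymal cells that is named among EMT regulators, had a difference of -0.40 on its brightest probe set. All 4 HMGA2 probe sets above the floor were lower in CD133+ cells, from -1.31 to -0.30, so that 1 gene of that list passed 2-fold lower when probe sets that can match several transcripts were left out. CDS1, a phospholipid enzyme of the epithelial list, lay just under 2-fold at 0.99, and all 3 of its probe sets above the floor were higher. SPARC, a matricellular protein of the mesenchymal list, differed by 0.98 on its brightest probe set and by 1.31 on its other.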
